A study of Mus musculus with 4 samples.

Results

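The Polycomb complex genes described here were Ring1, Rnf2, Pcgf6, Cbx7 and Cbx2 of Polycomb repressive complex 1 (PRC1) and Ezh1, Ezh2, Eed, Suz12 and Jarid2 of PRC2. These 10 genes were found by symbol among the 22367 protein-coding genes of GENCODE M1, the annotation of the mouse genome build mm9. Every Wapal-binding site with its centre within 100 kb of the transcriptional start site (TSS) of one of them was taken, where the TSS was the 5′ end of the gene record. The 10 genes had 10 such sites of the 8323 in the genome, with 9 genes having at least 1 site and Rnf2 having none. The sites were taken by gene names and positions only, and by no score, width or sequence of a site. The genes themselves were chosen with earlier results of these data known.

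PRC1 attaches ubiquitin to histone H2A, and PRC2 methylates histone H3 at lysine 27. Both marks lie over the promoters of silent genes, and in embryonic stem cells (ESCs) they hold many developmental genes in a silent state. Wapal is the factor that releases the cohesin ring from chromatin, and cohesin is often found on DNA where the protein CTCF is bound.

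The study asked where Wapal sits in the genome of mouse ESCs and how it bears on silencing by Polycomb proteins. The FB Wapal group held 2 independently derived ESC clones that expressed Wapal with a tag that takes up biotin, so that streptavidin beads could pull it down with its DNA. The control group was 1 ESC line with the biotin ligase BirA and no tagged Wapal, and 1 input library of sheared genomic DNA served as the reference for calling. All cells were kept in standard ESC culture, the tagged protein was expressed in addition to the cell's own Wapal, and no Wapal was depleted in these libraries. The lists of regions carry no expression values, so the cell type was not checked against markers here.

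A single list joins the regions of the 2 FB Wapal clones, so no value below has a spread between replicates and no test across samples was possible. It held 8497 regions, of which 174 shared at least 1 bp with one of the 266 regions of the BirA list and were taken out. Each region has a position and a value without a label. It was read as the score of the caller MACS, which is 10 times the negative log10 of the p-value against input. Scores started at 50.0, the caller's threshold, and the median of all sites was 81.36. The lists give no read counts, so the depth behind a single site is not known.

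The mm9 sequence around the best motif match in the nearest site of each of the 9 genes with a site within 100 kb is shown here because the sites are grouped by it below. Capitals mark the 12 bases closest to the CTCF core motif, the central part of the sequence that CTCF binds, with 15 bases on either side in lower case. Each sequence reads 5′ to 3′ on the strand of the motif. The sites of Pcgf6, Cbx7 and Cbx2 matched the motif at every position.
Pcgf6, chr19:47065824-47065865, reverse strand: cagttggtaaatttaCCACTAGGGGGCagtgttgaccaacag
Cbx7, chr15:79776612-79776653, forward strand: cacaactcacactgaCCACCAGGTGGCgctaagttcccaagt
Cbx2, chr11:118836921-118836962, reverse strand: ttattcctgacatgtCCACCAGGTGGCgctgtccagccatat
The sites of Ring1, Suz12 and Jarid2 matched with 1 mismatch. It fell at position 5 of the motif in all 3, counting from 1 at its 5′ end.
Ring1, chr17:34214681-34214722, forward strand: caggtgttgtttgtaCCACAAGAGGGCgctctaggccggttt
Suz12, chr11:79733574-79733615, reverse strand: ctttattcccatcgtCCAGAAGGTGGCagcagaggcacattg
Jarid2, chr13:44900427-44900468, forward strand: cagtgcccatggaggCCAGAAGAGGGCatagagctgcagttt
The closest stretches in the nearest sites of Ezh1, Ezh2 and Eed had 2 mismatches and are shown for contrast. They were added after the matches were seen.
Ezh1, chr11:101073358-101073399, forward strand: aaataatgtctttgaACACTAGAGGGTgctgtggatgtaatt
Ezh2, chr6:47583655-47583696, reverse strand: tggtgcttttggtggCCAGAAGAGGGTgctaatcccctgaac
Eed, chr7:97147289-97147330, forward strand: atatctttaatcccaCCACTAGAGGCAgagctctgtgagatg
Both Ezh genes had a mismatch at position 12, beside one at position 1 for Ezh1 and at position 5 for Ezh2. The mismatches of Eed fell at positions 11 and 12.

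By the 5′ end of the gene record, no Polycomb complex gene had a Wapal-binding site at its promoter. None of the 10 had a site within 2 kb of this TSS, where 1.73% of protein-coding genes had one, and none had a site within 10 kb, where 8.72% did. Within 20 kb, 2 members had a site, Ezh1 and Eed, beside 17.9% of all protein-coding genes. Within 50 kb there were 5 of 10 beside 38.5%, and within 100 kb there were 9 of 10 beside 59.9%. With 10 genes, the background at 2 and 10 kb leaves room for a count of 0, and nothing particular to the members was read from it. Of the 10 sites, 6 lay upstream of the TSS and 4 downstream. The nearest site was upstream at 5 of the 10 members, beside 51.5% of all protein-coding genes. The statement on promoters depends on the start chosen. Measured from the nearest start of any annotated transcript, 1 member (Ezh1) had a site within 2 kb beside 2.83% of protein-coding genes, 2 members (Ezh1 and Jarid2) within 10 kb beside 11.8%, and 4 within 20 kb beside 21.9%.

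**Figure D1:**
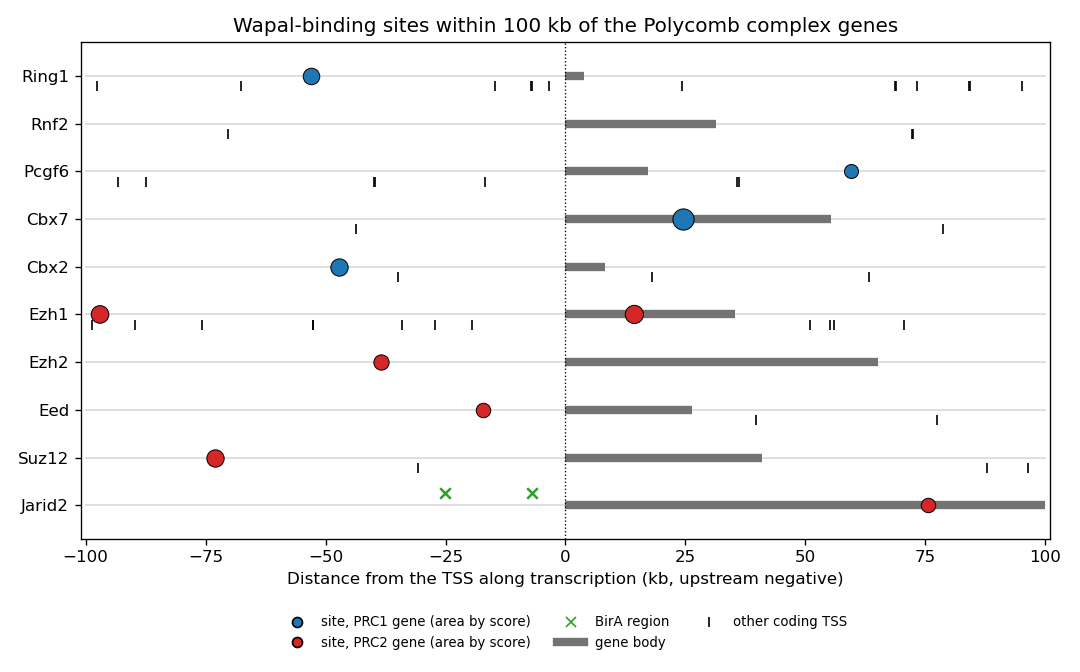
Positions of Wapal-binding sites (circles, area by MACS score), BirA regions (crosses), gene bodies (grey bars) and other protein-coding TSSs (ticks) within 100 kb of the TSS of each Polycomb complex gene, drawn along the direction of transcription. The 10 kb on either side of each member's own TSS, by the gene record, hold no site, and the BirA regions lie only at Jarid2.

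Ring1 and Rnf2 encode the ubiquitin ligases of PRC1, also known as Ring1a and Ring1b. Ring1 lies on the reverse strand of chromosome 17 (34157737 to 34161625) in the major histocompatibility region, and its site spanned 34214320 to 34215088, 53.08 kb upstream of the TSS. That site had a width of 769 bp and a score of 75.41, lower than the median of all sites. The TSSs of 4 other coding genes, H2-Ke6, Slc39a7, Rxrb and Col11a2, stood between it and Ring1. It lay in no annotated gene, and its nearest coding TSS was that of H2-Oa, 14.58 kb away. Rnf2 lies on the reverse strand of chromosome 1 (153316536 to 153347953) and had no site within 100 kb. Its nearest site was just outside, at 110.6 kb downstream in an intron of 1200016B10Rik, with a score of 121.5. On the upstream side the first site of Rnf2 was 205.2 kb away, in an exon of Fam129a, and had a score of 206.82. The pair of ligase genes thus differed in the number of sites within 100 kb. Both sites flanking Rnf2 lay outside that window and had higher scores than the Ring1 site inside it. Beyond 100 kb, Ring1 also had sites at 127.4, 146.3 and 197.4 kb, with scores of 81.85, 152.74 and 59.17. Within 200 kb, Ring1 had 4 sites and Rnf2 had 2.

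Pcgf6 encodes the ring finger partner that defines one of the variant PRC1 complexes. It lies on the reverse strand of chromosome 19 (47108109 to 47125380), and its site spanned 47065422 to 47066176, 59.58 kb downstream of the TSS. The site of Pcgf6 was 755 bp wide and had a score of 54.44, the lowest of the 10. It lay in an intron of Nt5c2, and the TSSs of Ina and Nt5c2 were between the site and Pcgf6. An exact motif thus lay in the site with the lowest score.

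Cbx7 and Cbx2 encode chromodomain proteins by which canonical PRC1 reads methylated histone H3. Cbx7 lies on the reverse strand of chromosome 15 (79746237 to 79801549) and held its site within its own intron, at 79776220 to 79777730, 24.57 kb downstream of the TSS and 12.65 kb from the start of another Cbx7 transcript. The Cbx7 site had the highest score of the 10, 124.33, and was 1511 bp wide, wider than 95.61% of all sites. Its exact motif lay 342 bp from the centre of the site. Cbx2 lies on the forward strand of chromosome 11 (118884276 to 118892584), and its site spanned 118836599 to 118837663, 47.15 kb upstream of the TSS. That site was 1065 bp wide, had a score of 83.01 and lay in no gene. The nearest coding TSS was that of Enpp7, 12.29 kb away, which stood between the site and Cbx2. Cbx8, which encodes a further chromodomain protein, has its TSS 18.01 kb downstream of that of Cbx2. The Cbx2 site was also the nearest one to Cbx8, at 65.15 kb from its TSS.

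Ezh1 and Ezh2 encode the alternative methyltransferases of PRC2. Ezh1 lies on the reverse strand of chromosome 11 (101052429 to 101087777) and was the single member with 2 sites within 100 kb. The nearer one spanned 101072987 to 101073861 in an intron of Ezh1, 14.35 kb downstream of the TSS, the shortest distance of the 10 genes. It was 875 bp wide with a score of 91.63, and it lay 1.532 kb from the start of an alternative Ezh1 transcript. The second site spanned 101184122 to 101185432, 97.0 kb upstream, with a width of 1311 bp and a score of 85.58. It overlapped an exon of Psme3 at an untranslated part, its nearest coding TSS was that of Aoc2 at 1.6 kb, and the TSSs of 7 coding genes stood between it and Ezh1. Ezh2 lies on the reverse strand of chromosome 6 (47480273 to 47545340), and its site spanned 47583461 to 47583963, 38.37 kb upstream and in no gene. The Ezh2 site was the narrowest of the 10 at 503 bp, and 2.211% of all sites were narrower. Its score was 64.45, and it held 0 CpG dinucleotides. No other coding TSS lay within 100 kb of Ezh2, whereas Ezh1 had 12.

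Eed and Suz12 encode the core subunits that the methyltransferase needs for activity. Eed lies on the reverse strand of chromosome 7 (97103166 to 97129493), and its site spanned 97145918 to 97147637, 17.28 kb upstream and in no gene. The Eed site was the widest of the 10 at 1720 bp, wider than 97.39% of all sites, and its score of 57.71 was low, with 16.02% of all sites having a lower one. Suz12 lies on the forward strand of chromosome 11 (79806608 to 79847625), and its site spanned 79733146 to 79734087, 72.99 kb upstream. The Suz12 site was 942 bp wide with a score of 82.9, and the TSS of Utp6 stood between it and Suz12.

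Jarid2 encodes an accessory subunit that helps to bring PRC2 to chromatin. It is the longest of the 10 genes at 192.2 kb and lies on the forward strand of chromosome 13 (44824843 to 45017012). Its site spanned 44900075 to 44900899 in a Jarid2 intron, 75.64 kb downstream of the TSS, with a width of 825 bp and a score of 57.75. A second site in the same gene, at 44928530 to 44929391, was just outside the window at 104.1 kb and had a higher score of 85.41. It lay 7.1 kb from the start of another Jarid2 transcript at 44936060. The best motif match of both Jarid2 sites had 1 mismatch. The first was on the forward strand and the second on the reverse strand.

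Jarid2 was also the member with signal in the control cells. The BirA list had 2 regions upstream of the Jarid2 TSS, at 7.07 kb with a score of 69.1 and at 25.2 kb with a score of 57.18. A region of the FB Wapal list, at 44816984 to 44818282 and 7.21 kb upstream, overlapped the nearer one and was therefore not counted as a site. It had a score of 69.74, a width of 1299 bp and a best motif match with 2 mismatches. Kept in the list, it would have been the nearest region of any member to a TSS. The other 9 genes had no BirA region within 100 kb, and 3.32% of all protein-coding genes had one. Scores in the FB Wapal and BirA lists are not comparable, since each was called from its own libraries.

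The 10 sites were ordinary in score and somewhat wide. Their median score was 79.16, from 54.44 to 124.33, beside a median of 81.36 and quartiles of 62.52 and 115.7 for all sites. The scores of 5 of the 10 were above that median, and the Cbx7 site was the one above the upper quartile. The median width was 908.5 bp beside 812 bp for all sites. Of the 10 sites, 7 were wider than that median and 5 were above the upper quartile of 933 bp (Cbx7, Cbx2, Suz12, Eed and the upstream site of Ezh1). The widest of them, at Eed, had one of the lower scores, and the Cbx7 site was next in width with the highest score.

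**Figure D2:**
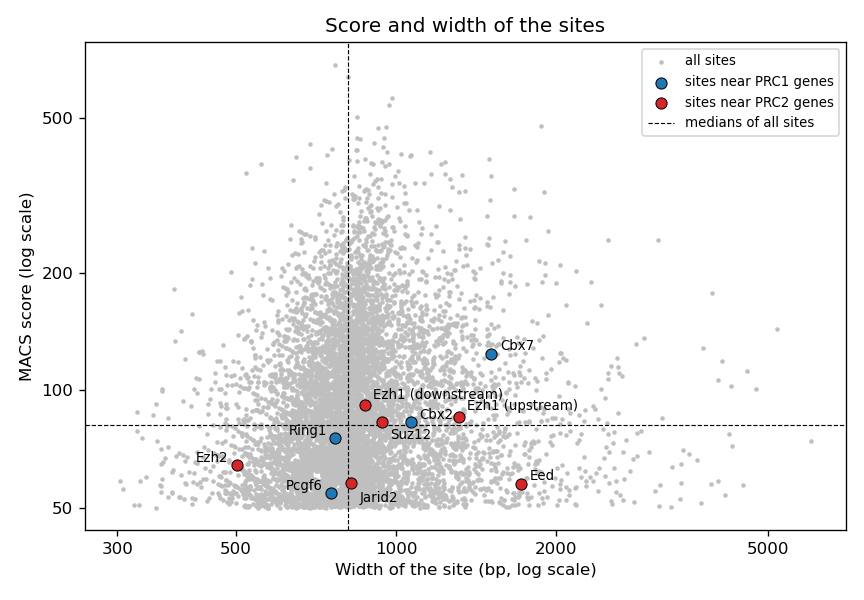
MACS score against width in bp, both on log scales, for all 8323 Wapal-binding sites (grey) and the 10 sites near Polycomb complex genes (coloured by complex); dashed lines are the medians of all sites. The Cbx7 site is high and wide, the Eed site is wide with a score of 57.71, and the Ezh2 site is the narrowest at 503 bp.

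Genes of both complexes had sites inside and outside annotated genes. Of the 10 sites, 5 lay in no gene (Ring1, Cbx2, Ezh2, Eed and Suz12), 3 lay in an intron of the member itself (Cbx7, Ezh1 and Jarid2) and 2 lay in another coding gene (Pcgf6 and the upstream site of Ezh1). The member was the nearest coding gene to its site in 5 cases, those of Cbx7, Ezh2, Eed, Jarid2 and the nearer site of Ezh1. The same shares were not computed for all 8323 sites, so nothing particular to the members was read from these counts. By its own annotation, the paper placed the majority of all Wapal-binding sites outside genes. Among all protein-coding genes, 11.5% held a site between their ends. The median length was 33.38 kb for the 10 members and 15.43 kb for all protein-coding genes.

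The distance from the TSS to the nearest site had a median of 50.11 kb over the 10 genes, with quartiles of 28.02 and 69.64 kb. All protein-coding genes had a median of 72.95 kb, with quartiles of 29.35 and 169.2 kb. The members ran from 14.35 kb at Ezh1, where 12.75% of genes had a nearer site, to 110.6 kb at Rnf2, where 62.85% did. The nearest sites of Rnf2, Jarid2 and Suz12 were farther than the median gene's, and those of the other 7 were nearer. By complex, the medians were 53.08 kb for the 5 PRC1 genes and 38.37 kb for the 5 PRC2 genes, with overlapping ranges.

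**Figure D3:**
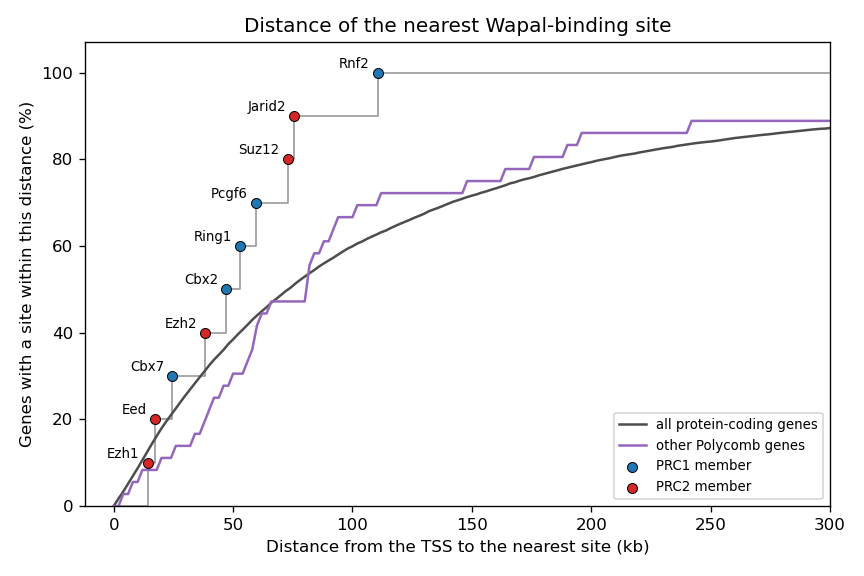
Share of genes with a Wapal-binding site within a given distance of the TSS in kb, for all protein-coding genes (dark line), 36 other Polycomb genes (purple line) and the 10 Polycomb complex genes (points on a stepped line, coloured by complex). The members start at 14.35 kb and reach 9 of 10 genes at 100 kb, where all genes reach 59.9% and the other Polycomb genes 66.7%.

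The other genes of the system were taken from a list of 36 genes for further subunits, partners and opposing enzymes. Of these, 0 had a site within 2 kb, 2 within 10 kb, 4 within 20 kb, 11 within 50 kb and 24 within 100 kb. As shares these were 0, 5.56, 11.1, 30.6 and 66.7%, beside 1.73, 8.72, 17.9, 38.5 and 59.9% of all protein-coding genes. Their median nearest distance was 81.53 kb, beside 72.95 kb for all protein-coding genes. A site within 100 kb was missing at 33.3% of the 36, beside 40.1% of all protein-coding genes. Nothing particular to the genes without a site was read from this. The 12 genes with no site within 100 kb included Bmi1 and Scmh1 of canonical PRC1, Rybp, Yaf2, Bcor, L3mbtl2 and Auts2 of variant PRC1, and Phf19 and Lcor of PRC2. Also among them were Bap1 and Kdm6a, which encode enzymes that remove the marks of PRC1 and PRC2. The closest site to any of the 36 was 2.121 kb upstream of Phc1, a polyhomeotic subunit of PRC1. That gene was singled out after its value was seen, as was Epop (annotated as E130012A19Rik), whose nearest site was at 7.177 kb.

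The CTCF core motif was shared by 6 of the 10 sites. With at most 1 mismatch on either strand this compares with 74.5% of all sites, with 9.76% of regions of the same width 5 kb to either side and with 25.2% of BirA regions. All 4 sites of PRC1 genes were among the 6 and 2 of the 6 sites of PRC2 genes, those of Suz12 and Jarid2. An exact motif was in 3 of the 10, all at PRC1 genes, beside 28.3% of all sites and 0.733% of the regions at either side. Both sites of Ezh1 and those of Ezh2 and Eed had 2 mismatches at best, a limit that 96.5% of all sites and 50.1% of the regions at either side met. A split of 10 sites is small, and no test was made of it. The split covers only sites inside the window around each TSS. Beyond it, up to 200 kb, exact motifs lay in sites of both complexes. For PRC2 genes they were 139.0 kb from Eed and 159.3 kb from Ezh1. For PRC1 genes they were 146.3 and 197.4 kb from Ring1 and 181.4 kb from Pcgf6. The Suz12 site at 139.4 kb had 2 mismatches, and every other site in that range had at most 1. Of the sites in the genome whose best match had 1 mismatch, 34.5% had it at position 5, so the shared position in Ring1, Suz12 and Jarid2 was also the most frequent one overall. A match describes the letters, and CTCF itself was not measured in these libraries.

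The place of the motif within the site was near the centre in 4 of these 6 sites, within 100 bp of it. It was 2 bp from the centre for Ring1, 22 bp for Suz12, 40 bp for Jarid2 and 46 bp for Pcgf6. In Cbx2 and Cbx7 it was 190 and 342 bp away, in 2 of the wider sites. The median over all sites with the motif was 41.5 bp. The GC content of the 10 sites ran from 39.17% at Ezh2 to 52.02% at Cbx7, with a median of 45.66% beside 44.34% for all sites. Most exact motifs lay outside the sites. Within 100 kb of the 10 TSSs there were 13 exact motifs, of which 3 lay in a site, and in the whole genome 2400 of 12721 did (18.9%). Rnf2, Ezh1, Ezh2 and Jarid2 had no exact motif in their windows. Ring1, Suz12 and Eed had 2, 2 and 1, none of them in a site.

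The first site on either side of each TSS bounded a length without a site, whose median over the 10 genes was 243.6 kb. Over all protein-coding genes it was 366.3 kb, with quartiles of 185.1 and 702.2 kb. It was shortest at Ezh1 with 111.4 kb and at Cbx7 with 130.0 kb, and 11.51% and 14.82% of genes had a shorter one. Eed followed with 156.3 kb and Ring1 with 180.4 kb. The values of Suz12, Ezh2, Rnf2 and Pcgf6 were 212.4, 274.8, 315.9 and 365.4 kb. Cbx2 with 429.0 kb and Jarid2 with 929.0 kb were the 2 genes above the median of all genes. On the upstream side of Jarid2 the first site was 853.4 kb away, and the removed region at 7.21 kb lay in that length. The sites at the far ends had scores up to 299.03, that of the site downstream of Cbx2 in an intron of Rnf213.

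**Figure D4:**
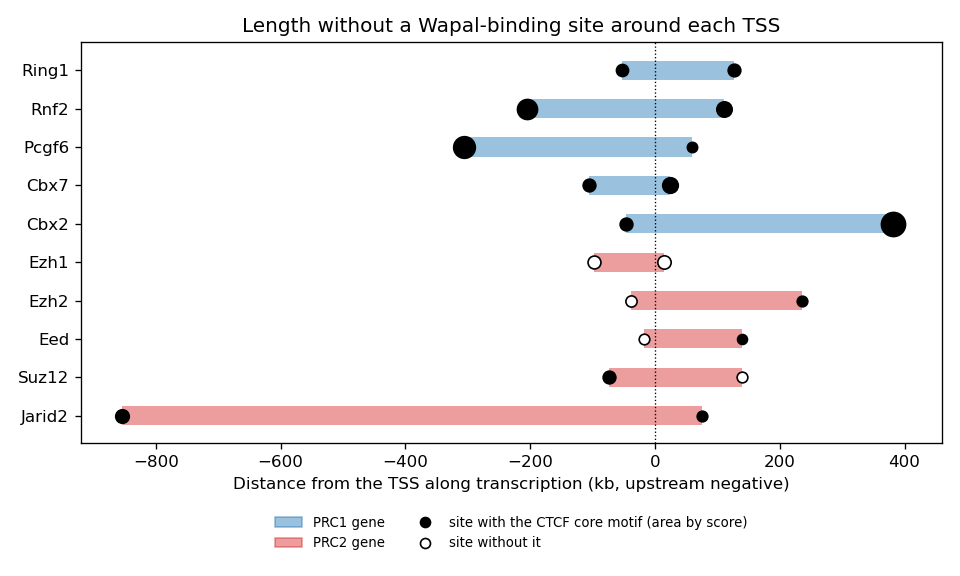
Length in kb between the first Wapal-binding site upstream and the first one downstream of each TSS (bars, coloured by complex); circles are these sites, with area by MACS score, filled where the CTCF core motif was present with at most 1 mismatch. The bar of Jarid2 reaches 853.4 kb upstream, and Ezh1 is the gene with an open circle at both ends.

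Both bounding sites held the CTCF core motif at 6 of the 10 genes (Ring1, Rnf2, Pcgf6, Cbx7, Cbx2 and Jarid2), beside 56.4% of all protein-coding genes with a site on either side. All 5 PRC1 genes were among the 6. The motifs lay on the same strand at 5 of them, forward at Ring1, Cbx7 and Jarid2 and reverse at Rnf2 and Cbx2. They pointed away from each other at Pcgf6, and at no member did they point towards each other. Over all genes with both motifs, 26.1% had them pointing towards each other, 27.5% away, 24.6% both forward and 21.9% both reverse. With 6 genes the absence of one arrangement is a description only. Contacts between these sites were not measured here.

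The number of neighbouring genes varied widely among the 10. Ring1 and Ezh1 had 13 and 12 other coding TSSs within 100 kb, more than 95.55% and 93.96% of genes, whereas Ezh2 and Jarid2 had 0. The median of the 10 genes was 3, the same as over all protein-coding genes. Ring1 with 13 neighbours and Ezh2 with none each had 1 site.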

How the data were processed

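ChIP was done by the authors with streptavidin on 2 FB Wapal clones and 1 BirA line of mouse ESCs, with 1 input library. Bowtie was used for alignment to mm9, keeping reads with a unique alignment, and MACS 1.4.2 for calling against input, at its default p of 1e-05. The deposited value of each region was read as the authors' MACS score, 10 times the negative log10 of the p-value, and compared only within a list. The lists do not label this value, and the reading rests on its minimum of 50.0, which equals the default threshold. The rule by which the regions of both clones were joined is not given in the sources used here, nor are read counts per region, so the precision of single sites is unknown. Whether scores and widths of regions from the 2 clones are comparable within the joined list is also not known.

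Starting from the lists, FB Wapal regions sharing at least 1 bp with a BirA region were removed. Sites were placed by their centre relative to GENCODE M1 genes on mm9. The CTCF core motif (12 positions, some of which allow 2 bases) was searched on both strands of mm9 with at most 1 mismatch, and in regions of the same width 5 kb to either side (n = 16645). The background was 22367 protein-coding genes. There was no test across samples. The members and lists were chosen with earlier results of these data known. Genes named were the members, the genes at or nearest their sites, and other Polycomb genes with no site within 100 kb, with a site within 2 kb or close to a member. Alternatives covered BirA removal, score, merging, TSS, site edge, gene body, window, background and motif limits. The functions were tested on simulated data. Python 3.11.15, numpy 2.4.6, pandas 2.3.3, numba 0.67.0 and matplotlib 3.10.9 were used.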

Additional observations from a re-analysis of the deposited data

How the results depend on the processing

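No paired analysis was possible because 1 list joins both FB Wapal clones, and for the same reason no replicate could be left out. The score threshold changed the description most. When scores under 100 were left out, the sites within 100 kb fell from 10 to 1 and the genes with a site from 9 to 1 (Cbx7). There were then 0 genes with a site within 20 kb and 1 within 50 kb, with a median nearest distance of 237.8 kb. The median score of 124.3 and median width of 1511 bp were those of the Cbx7 site alone. Shares of all protein-coding genes were not computed at this threshold, and a reason for the fall was not tested. Without removal of BirA regions, and with removal only where they cover at least 50% of a region, 1 gene (Jarid2) had a region within 10 kb. Measured from the nearest start of any transcript, 1 gene had a site within 2 kb, 2 within 10 kb and 4 within 20 kb, beside 2.83, 11.8 and 21.9% of all protein-coding genes. Measured from the gene body these counts were 3, 3 and 4, and the shares of all genes at these distances were not computed. The 3 genes held a site in the body itself, beside 11.5% of all protein-coding genes. The members were longer, with a median of 33.38 kb beside 15.43 kb for all. A window of 50 kb held 5 sites at 5 genes, and one of 200 kb held 25 sites. Of the 10 sites, 3 held the exact CTCF core motif and 10 held it with at most 2 mismatches. These rest on the definitions of start, window and motif. The other 74 values over the 10 genes together, and 157 of 200 values for single genes, stayed within 1.5 times of those in the text. Merging, removal within 1 kb of a BirA region, placing sites by their edge and both other backgrounds were among the former.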
